A study of Mus musculus with 24 samples.

Results

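*Papss2*, *Slc25a34* and *Rbp3* are 3 of the 51826 genes in a count table of 24 dorsal hippocampus RNA-Seq libraries from WT mice and CBP KIX/KIX littermates. They were selected on their genotype differences after learning (fold change and p-value), so that contrast is described for them here and not tested. In it 610 of 21489 genes were called (2.84%), and 4 without the fitted factors of unwanted variation. *Rbp3* had the largest log2 change of the 610, and *Papss2* and *Slc25a34* had the first and second lowest p-values. These ranks restate the choice and are no support for it. *Rbp3* ranked 103 by p-value, at a log2 difference of 2.35. The genotype difference in untrained mice shares no library with that contrast, whereas the training differences within a genotype share its trained libraries. The genes and lists were nonetheless chosen with earlier results of these data known.

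CBP is a transcriptional co-activator, and its KIX domain is the surface that phosphorylated CREB and c-Myb bind. CBP KIX/KIX mice carry 3 point mutations in that domain on both alleles, in every tissue and from development on. A difference between adults of the 2 genotypes therefore covers the life of the animal as well as the hour after training. *Papss2* encodes an enzyme that makes PAPS, the sulfate donor used by all sulfotransferases, and *Papss1* encodes the other enzyme of this kind. *Slc25a34* encodes a member of the mitochondrial carrier family whose cargo is not firmly established. *Rbp3* encodes the retinoid-binding protein of the space between photoreceptors and pigment epithelium, and it is known from the retina and the pineal gland rather than from the hippocampus.

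The labels give all animals as C57BL/6j males of 2 to 4 months, whereas the study's methods name both sexes for its experiments in general. RNA-Seq 1 used total RNA after ribosomal depletion and compared WT homecage (n = 3), WT mice 1 h after the last of 3 days in the Morris water maze (MWM, n = 3) and CBP KIX/KIX mice after the same training (n = 3). RNA-Seq 2 used poly-A RNA and compared WT homecage (n = 3), CBP KIX/KIX homecage (n = 4), and WT (n = 4) and CBP KIX/KIX mice (n = 4) 1 h after 1 day of contextual fear conditioning (CFC). RNA-Seq 1 holds no CBP KIX/KIX homecage group here, and the task, the library type and the sequencing differ together between the experiments. Assigned counts ran from 38174044 to 65709282 per library in RNA-Seq 1 and from 15385836 to 46056290 in RNA-Seq 2, where replicates 3 and 4 were all shallower than replicates 1 and 2. *Crebbp*, the gene that carries the mutations, had a mean of 66.2 CPM in WT homecage libraries of RNA-Seq 2 (SD 4.59, n = 3) and of 63.1 CPM in the CBP KIX/KIX homecage libraries (SD 4.23, n = 4). Point mutations need not alter a count, so this level is no check of the genotype labels. Markers of neurons summed to between 8060 and 11049 CPM over the 24 libraries, so that the defining markers of brain tissue were present. Choroid plexus markers, by contrast, summed to between 31.1 and 4217 CPM, and spread widely within every group. In bulk tissue, fewer cells of a type and less RNA per cell cannot be told apart.

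*Papss2* lies on mouse chromosome 19 (32595790 to 32667187, plus strand, GRCm38), *Slc25a34* on chromosome 4 (141618824 to 141623821, minus strand) and *Rbp3* on chromosome 14 (33954003 to 33964216, plus strand), all protein coding. The promoters are shown because *Papss2* and *Slc25a34* were both lower in the mutant while *Rbp3* was higher in one experiment. The 250 bases before the RefSeq start site follow, 5′ to 3′ on the gene's strand, from build GRCm38.p6 (chr19:32595465-32595714, chr4:141623835-141624084 and chr14:33953753-33954002). Capitals mark matches to any of 5 motifs.
Papss2: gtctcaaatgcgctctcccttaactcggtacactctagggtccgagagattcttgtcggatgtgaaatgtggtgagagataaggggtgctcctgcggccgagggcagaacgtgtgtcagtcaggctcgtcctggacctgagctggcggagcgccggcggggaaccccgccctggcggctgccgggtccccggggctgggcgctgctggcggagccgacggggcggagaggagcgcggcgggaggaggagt
Slc25a34: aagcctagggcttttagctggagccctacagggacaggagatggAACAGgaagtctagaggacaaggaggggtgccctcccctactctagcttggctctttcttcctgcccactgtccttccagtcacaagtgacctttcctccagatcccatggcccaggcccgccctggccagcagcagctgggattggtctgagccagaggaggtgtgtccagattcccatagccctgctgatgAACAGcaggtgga
Rbp3: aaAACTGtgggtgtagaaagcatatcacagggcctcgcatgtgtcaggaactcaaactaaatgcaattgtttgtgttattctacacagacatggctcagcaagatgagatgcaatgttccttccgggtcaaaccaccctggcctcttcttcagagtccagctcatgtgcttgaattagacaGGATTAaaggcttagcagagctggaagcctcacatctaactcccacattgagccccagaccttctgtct

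The motifs were the full CRE (TGACGTCA) and its shorter core (TGACG, part of the full one), the E-box CACGTG that CLOCK and BMAL1 bind, the MYB core AACNG and the CRX core TAATCC, read on both strands in windows of 300 bases that also hold the 50 after the start. No window of the 3 genes held the full CRE, its core or the E-box, which were present in 1.79%, 20.8% and 7.15% of the 32851 RefSeq promoter windows. The *Slc25a34* window held 2 MYB cores, 206 and 13 bases upstream of the start, and the *Rbp3* window held 1 at 248 bases upstream, a motif found in 80.3% of windows. The *Papss2* window shown held none of the 5, and the window of its second start (chr19:32619755-32620054) held 1 MYB core. The CRX core, the letters recognised by a photoreceptor factor, occurred in the *Rbp3* window 69 bases upstream and in 7.06% of all windows. The windows also differ in composition, with 27 CpG pairs at the first *Papss2* start against 1 at *Slc25a34* and 2 at *Rbp3*, where the median window has 7. A match is only a run of letters, and the absence of one concerns these windows alone.

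*Papss2* was lower in CBP KIX/KIX mice that had not been trained. In WT homecage libraries of RNA-Seq 2 it was at 15.9, 15.4 and 15.4 CPM (counts scaled by library size and upper-quartile factor), and in CBP KIX/KIX homecage libraries at 7.86, 7.67, 8.82 and 8.57 CPM. The 3 WT libraries lay close together, and the highest mutant library was far below the lowest of them. The means were 15.6 ± 0.275 CPM (SD, n = 3) for WT and 8.23 ± 0.552 CPM (SD, n = 4) for the mutant, so that the mutant level was 52.8% of the WT level. The log2 difference was −0.93 (SE 0.09, 95% interval −1.12 to −0.73), with an adjusted p of 0.0165 in edgeR's quasi-likelihood test. *Papss2* was one of 2 genes called lower among 18682 tested (0.0107%), the other being *Col6a4*, a collagen chain, and none was called higher, while 1144 genes had an unadjusted p under 0.05. The call was lost, with adjusted p from 0.0504 to 0.172, when any 1 of the 3 WT libraries or CBP KIX/KIX replicate 2 or 3 was left out, although the difference itself stayed between −0.96 and −0.90. It was also lost with the replicate number as a block (adjusted p = 0.228 by edgeR).

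*Slc25a34* showed a difference of similar size from fewer reads. It was at 5.20, 4.62 and 4.71 CPM in the WT homecage libraries (81 to 228 reads) and at 2.47, 2.15, 2.12 and 2.67 CPM in the CBP KIX/KIX homecage libraries (39 to 110 reads). Again the groups did not overlap, and the mutant mean was 48.6% of the WT mean. The log2 difference was −1.04 (SE 0.14, 95% interval −1.36 to −0.73), and the adjusted p of 0.189 did not pass. This gene had the third lowest p-value of the comparison, after *Col6a4* and *Papss2*. With all 4 groups of RNA-Seq 2 in a single edgeR fit the adjusted p was 0.0176, but that fit also draws on trained libraries that chose the gene. With DESeq2, which called 59 genes, it was 4.57e-05. Of 15 alternatives 11 left the gene uncalled. Among them were all 7 edgeR fits that left out 1 library, with adjusted p from 0.0626 to 0.698. Groups that do not overlap with the mutant lower were found for 3.79% of the tested genes, *Papss2* and *Slc25a34* among them.

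None of the 10 astrocyte markers passed in homecage, and their median log2 difference was 0.05. Their summed level ran from 4087 to 4244 CPM in WT and from 4254 to 6125 CPM in CBP KIX/KIX libraries. The differences of the 10 markers ran from −0.06 to 1.32. The highest was that of *Gfap*, the intermediate filament of astrocytes and singled out for its value (SE 0.42, adjusted p = 0.786 in the same edgeR test). The sum was not taken without *Gfap*. The 2 mutant libraries with the highest astrocyte sums, replicates 3 and 4, had the 2 highest *Papss2* levels of their group. For *Slc25a34* they had the lowest and the highest level, at 2.12 and 2.67 CPM. These were also the shallower libraries of the group. After CFC the astrocyte sums of WT (4006 to 4161 CPM) and CBP KIX/KIX libraries (3960 to 4233 CPM) overlapped. After the MWM they did not, with 4705 to 4998 CPM in WT and 4549 to 4696 CPM in CBP KIX/KIX libraries. Of single genes, 9.26% had no overlap there with the mutant lower. In homecage the sums did not overlap either, with the mutant higher. For genotype after learning, 2 of the 10 astrocyte markers were called lower and 1 higher, beside 1.66% and 1.18% of all genes. The part of these cells in the *Papss2* and *Slc25a34* differences was not tested.

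*Rbp3* did not show a genotype difference in homecage that stood out from the spread. Its reads numbered 1, 34 and 0 in the WT homecage libraries and 1, 6, 6 and 25 in the CBP KIX/KIX ones, that is 0.0242, 0.689 and 0 CPM against 0.0244, 0.117, 0.327 and 1.42 CPM. One library of each group carried most of the reads, and the ranges overlapped. Choroid plexus markers summed to 1684 CPM in that WT library, against 31.1 and 34.3 CPM in the other two, and to 754 CPM in that CBP KIX/KIX library, against 126 to 2647 CPM in the other three. Their part in the *Rbp3* reads was not tested. The library with no read allows up to 0.195 CPM, the worth of 3 counts at its total count. That value, unlike the levels beside it, is not scaled by the upper-quartile factor. The difference of the means was 0.234 CPM with p = 0.629 in a two-sided exact permutation test (n = 3 and 4), a design in which p cannot fall below 0.0571. Without CBP KIX/KIX replicate 4 the difference turned to −0.0816 CPM, and without WT replicate 2 it was 0.460 CPM. The edgeR fit gave a log2 difference of 0.38 with a 95% interval from −2.50 to 3.26, which leaves out neither a large rise nor a large fall.

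**Figure D1:**
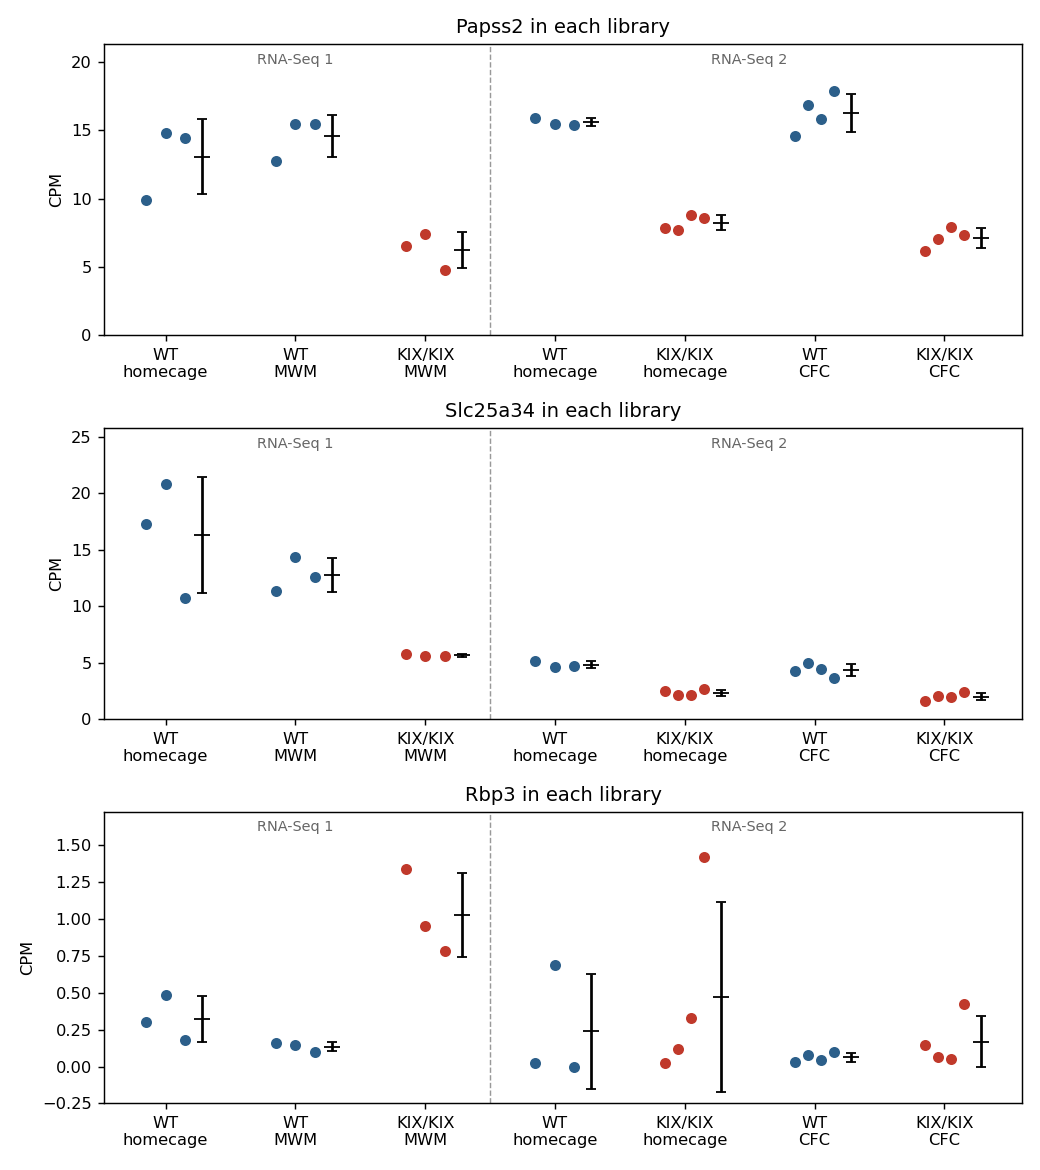
CPM of each gene (vertical axis) in each of the 24 libraries, by group, blue for WT and red for CBP KIX/KIX, with the group mean and SD in black and the 2 experiments separated by the dashed line. In RNA-Seq 2 the 4 CBP KIX/KIX homecage libraries lie between 7.67 and 8.82 CPM for *Papss2* and all below the WT homecage libraries, while for *Rbp3* the homecage groups overlap.

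After training, the contrast by which the genes were taken, *Papss2* was again well below its WT level in both tasks. After CFC it was at 14.6, 16.8, 15.8 and 17.9 CPM in WT and 6.14, 7.07, 7.95 and 7.33 CPM in CBP KIX/KIX mice, 43.7% of WT by the means. After the MWM it was at 12.8, 15.5 and 15.4 CPM in WT and 6.50, 7.38 and 4.80 CPM in the mutant, 42.7% of WT. The genotypes did not overlap in either task, which with the mutant lower was so for 1.21% of genes after CFC and 9.26% after the MWM.

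*Slc25a34* was at 4.30, 4.96, 4.48 and 3.65 CPM in WT and 1.59, 2.02, 2.00 and 2.37 CPM in CBP KIX/KIX mice after CFC, 45.9% of WT. After the MWM the WT values were 11.4, 14.4 and 12.6 CPM and the CBP KIX/KIX values 5.81, 5.59 and 5.62 CPM, 44.4% of WT. The 3 mutant libraries of the MWM had an SD of only 0.115 CPM, and again no mutant library reached a WT one in either task.

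*Rbp3* was higher in the mutant after the MWM, with 64, 32 and 43 reads (1.34, 0.952 and 0.785 CPM) against 8, 8 and 5 reads in WT (0.157, 0.148 and 0.0993 CPM), 7.60 times the WT mean. Every mutant library was above every WT one, as for 8.09% of genes in this direction. After CFC the reads were 6, 3, 1 and 8 in CBP KIX/KIX mice and 1, 4, 1 and 2 in WT, and the ranges overlapped. In 8 of the 15 libraries of RNA-Seq 2 the gene had no more than 3 reads, and the fitted difference after CFC had a 95% interval from −1.84 to 4.21 on the log2 scale, which takes in the value over both experiments. Calling it a gene marked by genotype thus rests on RNA-Seq 1, which is part of the contrast that chose it. *Papss2* and *Slc25a34* were lower in both tasks, which also chose them. They were lower in homecage too, where only *Papss2* was called.

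The differences before and after CFC could be set side by side within RNA-Seq 2. With the 4 groups in a single fit, the genotype difference of *Papss2* was −0.93 (SE 0.09) in homecage and −1.19 (SE 0.09) after CFC on the log2 scale, a further −0.26 with a 95% interval from −0.54 to 0.01. For *Slc25a34* the values were −1.05 (SE 0.14) and −1.14 (SE 0.14), a further −0.09 with an interval from −0.51 to 0.32. Because the second value of each pair chose the genes, these are descriptions and no test was made. The homecage and CFC contrasts share no library.

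**Figure D2:**
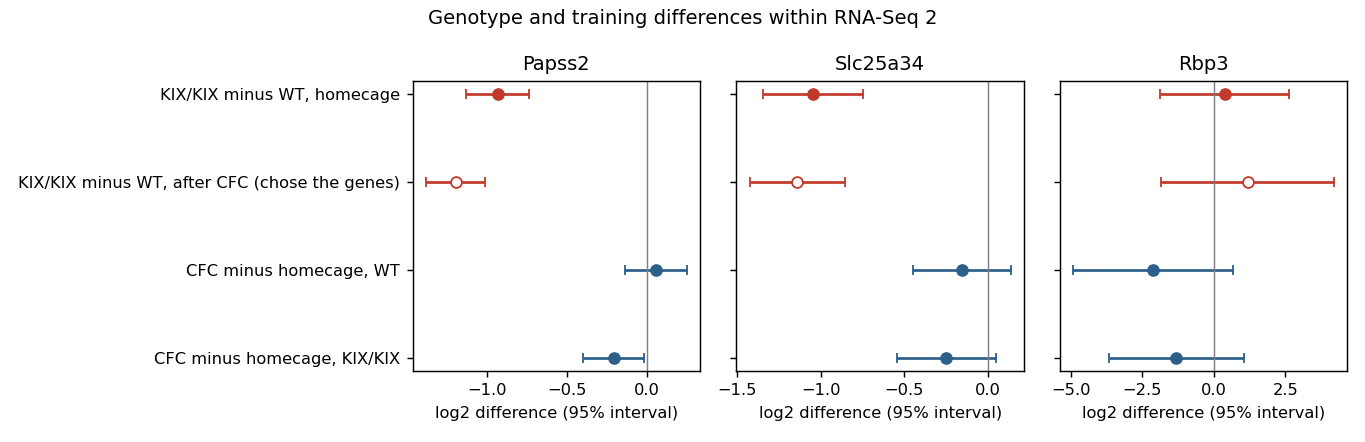
Log2 differences between groups of RNA-Seq 2 (horizontal axis, a separate scale for each gene) with 95% intervals, red for genotype and blue for training, the open circle being the contrast that chose the genes. The homecage genotype intervals of *Papss2* (−1.13 to −0.73) and *Slc25a34* (−1.35 to −0.75) lie below 0, and those of *Rbp3* span several log2 units.

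Training itself moved neither of the 2 genes that could be tested past the threshold. WT learning was compared with WT homecage over both experiments, where 231 of 22038 genes were called (1.05%), 142 lower and 89 higher, or 47 lower and 88 higher with TMM factors. *Papss2* differed by 0.10 (SE 0.08, adjusted p = 0.562) and *Slc25a34* by −0.21 (SE 0.09, adjusted p = 0.246) in the edgeR fit. *Slc25a34* passed only when WT homecage replicate 3 of RNA-Seq 1 was left out, at −0.33 with an adjusted p of 0.0386. In that fit 2274 of 22494 genes were called, against 231 of 22038 with every library kept. The library left out was the lowest of its group for *Slc25a34* at 10.8 CPM, against 17.3 and 20.9 CPM in the other two. *Papss2* in WT homecage mice of RNA-Seq 1 was at 9.90, 14.8 and 14.5 CPM, a range that takes in 1 of the 3 WT levels after the MWM, 12.8 CPM.

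In CBP KIX/KIX mice, 2 of 17717 genes were called between CFC and homecage (0.0113%), *Capn11* and *Zmym1*, both higher. With the replicate number as a block 1 gene was called lower and 1 higher, so that at least 1 of these calls was lost. *Papss2* differed by −0.21 (SE 0.11, 95% interval −0.44 to 0.02, adjusted p = 0.555) and *Slc25a34* by −0.25 (SE 0.16, 95% interval −0.60 to 0.11, adjusted p = 0.641) in the edgeR fit. With all 4 groups in a single fit the interval for *Papss2* was −0.40 to −0.02. The lower bounds stop short of the genotype differences in homecage. The training contrasts use the same trained libraries as the contrast that chose the genes.

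*Rbp3* was too low to enter either training comparison. In WT mice of RNA-Seq 1 it had 10, 17 and 10 reads in homecage (0.302, 0.484 and 0.179 CPM), each above the 3 libraries after the MWM. Non-overlap in this direction occurred for 9.5% of the genes of the WT learning comparison. Without the filter on low counts the log2 difference over both experiments was −1.34 (SE 0.58, adjusted p = 0.368 by edgeR).

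Across groups the order of *Papss2* levels followed genotype. In RNA-Seq 1 the means ran from 14.6 CPM for WT after the MWM (SD 1.56) through 13.1 CPM for WT homecage (SD 2.74) to 6.22 CPM for CBP KIX/KIX after the MWM (SD 1.31, n = 3 each), with only the WT groups overlapping. In RNA-Seq 2 the means ran from 16.3 CPM for WT after CFC (SD 1.4, n = 4) through 15.6 CPM for WT homecage and 8.23 CPM for CBP KIX/KIX homecage to 7.12 CPM for CBP KIX/KIX after CFC (SD 0.750, n = 4). Neighbours in that order overlapped within a genotype and not between genotypes. *Slc25a34* had WT homecage first, at 4.84 ± 0.310 CPM (SD, n = 3), and otherwise the same order. In RNA-Seq 2 *Rbp3* had CBP KIX/KIX homecage first at 0.472 ± 0.644 CPM (SD, n = 4), and all neighbouring groups overlapped there.

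The experiments differed in level for *Slc25a34* and less so for *Papss2*. The WT homecage mean of *Slc25a34* was 16.3 ± 5.13 CPM (SD, n = 3) in RNA-Seq 1, 3.36 times that of RNA-Seq 2. *Crebbp* stood at 3.20 times, and *Papss2* at 0.838 times. Library type, handling and sequencing cannot be told apart in this ratio, and genotype was compared only within an experiment.

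No call was made on *Papss1*, the other PAPS synthase gene. Its homecage mean was 76.4 CPM for WT (SD 2.74, n = 3) and 81.0 CPM for CBP KIX/KIX (SD 3.23, n = 4), a log2 difference of 0.08 (SE 0.05, adjusted p = 0.839 by edgeR), and after learning the difference was −0.02 (SE 0.03, adjusted p = 0.793). Per kilobase of exon, *Papss1* stood at 26.5 CPM and *Papss2* at 3.08 CPM over the 24 libraries. *Papss2* was thus the scarcer of the 2 synthase transcripts. The other genes of PAPS handling measured were the Golgi transporters *Slc35b2* and *Slc35b3*, the phosphatases *Bpnt1* and *Impad1*, and the ectoenzyme *Enpp1*. With *Papss1*, 0 of 6 passed in any of the 4 comparisons, and in homecage their log2 differences ran from −0.19 to 0.12 with a median of 0.07, against −0.0023 over all genes tested.

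Upstream of PAPS, none of the sulfate transporters passed, with 5 tested in homecage and 6 after learning. Among genes of cysteine and sulfur oxidation, 0 of 9 passed in homecage and 2 of 9 were lower after learning, in a comparison where 1.66% of genes were called lower. These were *Cbs*, which condenses homocysteine with serine, at −0.29 (SE 0.04, adjusted p = 0.00270), and *Cth*, which releases cysteine from the product, at −0.59 (SE 0.11, adjusted p = 0.00967), both by edgeR. In homecage they were at −0.26 (SE 0.11) and −0.18 (SE 0.22). Both calls belong to a comparison whose total fell from 610 to 4 genes without the factors of unwanted variation.

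Downstream stand the sulfotransferases that spend PAPS. Of the Golgi enzymes, 31 were tested in homecage and none passed, with a median log2 difference of 0.01. After learning *Ndst1*, an N-sulfating enzyme of heparan sulfate, was at −0.12 (SE 0.03, adjusted p = 0.0411) and *Chst8* at −0.23 (SE 0.04, adjusted p = 0.00870) by edgeR, 2 of 31 called lower beside 1.66% of all genes. Of the cytosolic enzymes, 0 of 4 passed in homecage and 0 of 6 after learning. *Sult1c2*, at 0.421 CPM over all libraries, was higher after learning in WT mice by 2.55 (SE 0.51, adjusted p = 0.0355 by edgeR), where 0.404% of genes were called higher. In that comparison the choroid plexus markers had a median log2 difference of 1.45 and 2 of 10 were called, and their part in the *Sult1c2* value was not tested.

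Of the mitochondrial carrier family, 46 other members were in the table. In homecage 40 were tested and none passed, with log2 differences between −0.23 and 0.23, so that *Slc25a34* at −1.04 stood outside the range of its family. *Slc25a35*, its nearest relative by name, had a homecage mean of 7.28 CPM for WT (SD 0.423, n = 3) and 6.83 CPM for CBP KIX/KIX (SD 0.514, n = 4), a log2 difference of −0.09 (SE 0.11, adjusted p = 0.924 by edgeR). After learning 3 of 44 passed, 2 lower and 1 higher (1.66% and 1.18% of all genes). *Slc25a37*, the mitoferrin, was at −0.18 (SE 0.05, adjusted p = 0.0452), *Slc25a44* at −0.11 (SE 0.02, adjusted p = 0.0216), and *Slc25a18*, a glutamate carrier, at 0.18 (SE 0.04, adjusted p = 0.0360), in edgeR's test.

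*Rbp3* was left out of the list of retinoid binding and metabolism, since genotype after learning chose it. It did not pass in homecage (adjusted p = 0.978 by edgeR). No gene of the list passed in any comparison, with 20 tested in homecage and 22 after learning. Of all genes 0.0107% and 2.84% were called there, so that lists of this size would hold hardly any call. The plasma retinol carrier *Rbp4* was at −0.15 (SE 0.24) in homecage. *Rbp2* and *Rbp7* were too low to be tested there. None of the 6 retinoic acid receptor genes passed. The photoreceptor and pinealocyte markers, 20 genes apart from *Rbp3*, summed to between 8.14 and 15.8 CPM over the 24 libraries. After the MWM this sum was 12.9 to 14.3 CPM in WT and 13.1 to 14.9 CPM in CBP KIX/KIX mice, and 0 of the 12 markers tested after learning passed. Genes as low as *Rbp3* add little to a sum of this size, which therefore cannot show a change in one of them.

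**Figure D3:**
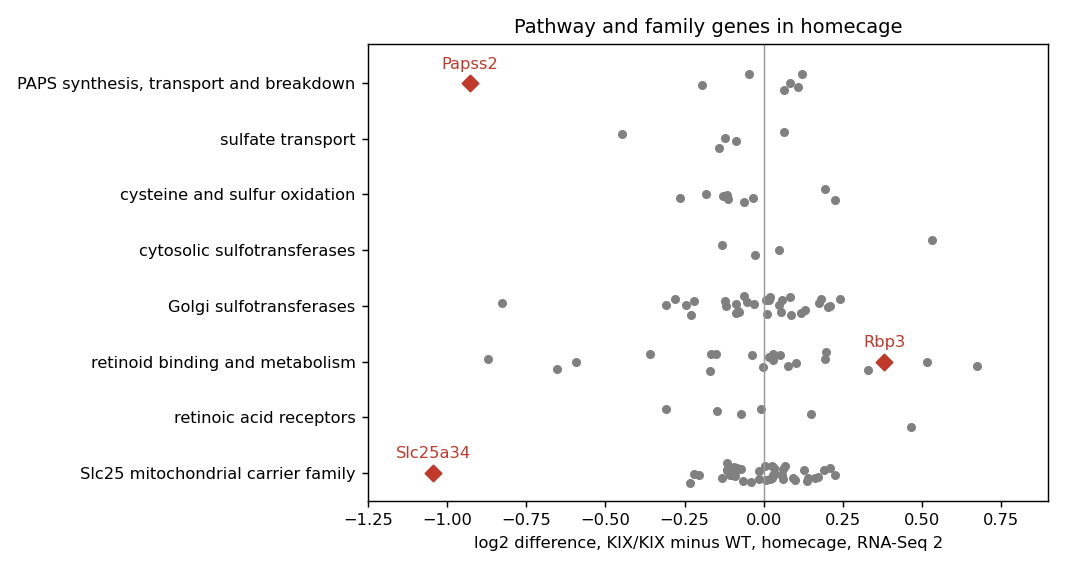
Log2 difference of CBP KIX/KIX minus WT in homecage (horizontal axis) for each tested gene of 8 lists (rows), with *Papss2*, *Slc25a34* and *Rbp3* as red diamonds and the other genes as grey points scattered vertically for legibility. The other PAPS genes lie between −0.19 and 0.12 and the other mitochondrial carriers between −0.23 and 0.23.

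No annotated gene overlapped any of the 3. Within 500 kb of *Papss2*, 8 genes were tested in homecage, with log2 differences between −0.10 and 0.27. The nearest were *Minpp1*, 80426 bp away at 0.02 (SE 0.05), and *Atad1*, 4451 bp away at 0.12 (SE 0.06). *Atad1*, which extracts proteins from the outer mitochondrial membrane, was the one neighbour of *Papss2* called in any comparison, at 0.15 (SE 0.03, adjusted p = 0.0462 by edgeR) after learning in WT mice, 1 of 8 beside 0.404% of all genes called higher. Around *Slc25a34*, 22 genes were tested in homecage and none passed, with log2 differences between −1.30 and 2.43. *Plekhm2*, 1913 bp away, was at −0.09 (SE 0.11) in homecage.

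*Tmem82*, which lies 191 bp from the end of *Slc25a34* on the same strand, was at −1.30 (SE 0.41, adjusted p = 0.786 by edgeR) in homecage from a mean of 0.355 CPM over all libraries. Reads of such close neighbours may be assigned to either, which was not checked and would concern both genes. The *Tmem82* value is also uncertain at so low a level. Of 23 genes tested around *Slc25a34* after learning, *Efhd2*, a calcium-binding protein gene 234321 bp away, was the one that passed, at −0.22 (SE 0.05, adjusted p = 0.0202 by edgeR), beside 1.66% of all genes called lower. Around *Rbp3*, 13 genes were tested in homecage and 13 after learning, and none passed. The nearest on either side, *Zfp488*, was at −0.03 (SE 0.13) in homecage, and *Gdf2* was too low to be tested.

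**Figure D4:**
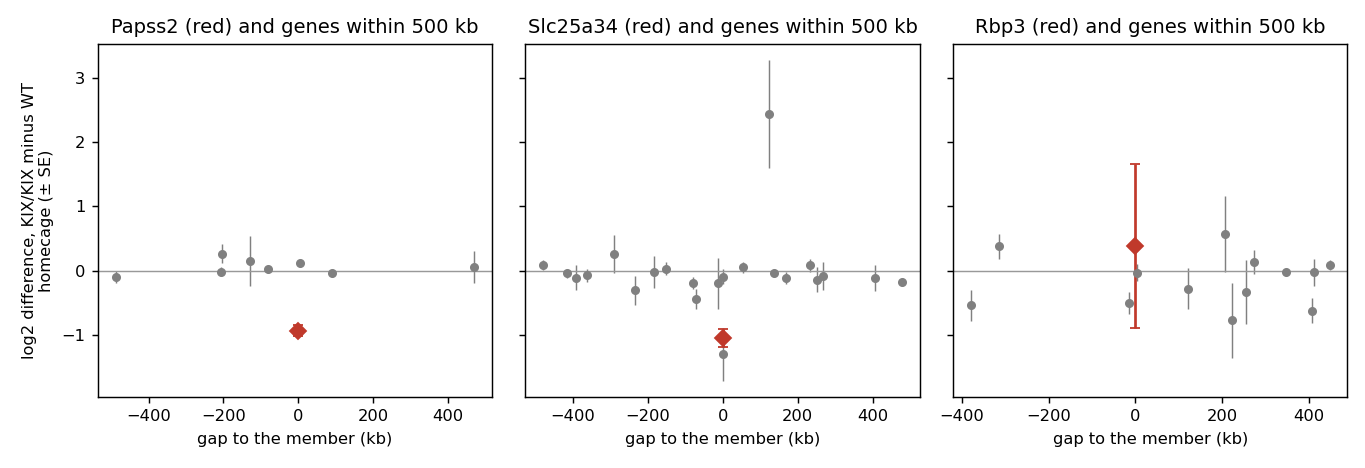
Log2 difference of CBP KIX/KIX minus WT in homecage with its SE (vertical axis) for *Papss2*, *Slc25a34* and *Rbp3* (red, at 0) and the tested genes within 500 kb, by the gap to each in kb (horizontal axis). The neighbours of *Papss2* lie between −0.10 and 0.27, and *Tmem82* at −1.30 is the neighbour that lies with *Slc25a34*.

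Likeness was measured as the mean absolute gap over 5 group differences from WT homecage on the log2 CPM scale (prior count of 2), among 22408 genes. The genes nearest to *Papss2* were *Gm13405*, *Trbc2* and *Myh13*, at 0.21 to 0.22. Those nearest to *Slc25a34* were *Sh2d2a*, *Slc6a20b* and *Myh13*, at 0.24 to 0.26. All 5 had mean levels of at most 0.484 CPM, so their differences rest on few reads. *Papss2* and *Slc25a34* themselves were 0.27 apart, and each had few genes closer to it than the other (rank 9 from *Papss2* and rank 7 from *Slc25a34*). All but the homecage difference use trained libraries, which chose the genes. The nearness of *Papss2* and *Slc25a34* was therefore partly fixed by that choice and is a description. The genes nearest to *Rbp3* were *Ifi44*, *H2-Q6* and *Ifi27l2a*, at 0.23 to 0.33, with means of 0.510 to 1.20 CPM. Restricting the measure to RNA-Seq 2 kept *Slc6a20b* and *Ifi44* and replaced the other 7 entries.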

How the data were processed

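The deposited table holds counts per gene for 24 libraries, the raw counts of reads assigned by featureCounts 1.4.4 after alignment with STAR on mm10 (GRCm38) within the bcbio-nextgen pipeline, per the labels and the study's methods. The annotation release and strand setting of the counting are not given in the sources used here. Gene positions were taken from GENCODE M21, which held 51633 of the 51826 gene identifiers, and promoters from RefSeq (GRCm38.p6). All 3 genes matched.

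Counts were tested with edgeR 4.0.16 in R 4.3.3 (upper-quartile factors, filterByExpr, quasi-likelihood test, Benjamini-Hochberg adjustment over all genes, threshold 0.05). Homecage and within-mutant comparisons used the groups compared and no further terms. Comparisons over both experiments had the experiment as a term and 3 (learning) or 4 (genotype after learning) RUVr factors. The homecage, WT learning and CBP KIX/KIX training fits were tested on simulated data that held no unwanted variation. The fit of genotype after learning was not tested in this way. Standard errors were taken from the log2 change and its F statistic. CPM for display used factors over all 24 libraries, and 95% intervals in the text are not adjusted for multiple testing. Counting floors of 3 counts cover counting error only.

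The genes, the lists and the named-gene rule (the 3 genes, their relatives, list genes past the threshold, nearest neighbours and most alike genes) were chosen with earlier results of these data known. Not every gene of the rule is reported here. *Col6a4*, *Capn11*, *Zmym1*, *Gfap* and *Crx* were named after their values were seen. The replicate numbers deviated together in the mutant training comparison (lowest correlation 0.191 over 4 pairs) and not in every pair of the other comparisons. Over the comparisons, same-numbered libraries of RNA-Seq 2 had mean correlations of 0.18 to 0.29, against −0.10 to −0.06 for different numbers. This came from the data and not from the labels. The reported fits hold no term for the replicate number. The sources used here do not tie each library to its own animal, so p-values measure the spread between libraries. Alternatives were TMM factors, DESeq2 1.42.0, no filter, a replicate block, GC normalization, other RUVr factors, single experiments and leaving out each library.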

Additional observations from a re-analysis of the deposited data

How the results depend on the processing

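The lower *Papss2* level in untrained CBP KIX/KIX mice kept its direction under all 15 alternatives, with log2 differences from −1.01 to −0.90, and its call under 8 of them. The call was lost with a replicate block (−0.95, adjusted p = 0.228), with replicates 1 and 2 only (−1.01, adjusted p = 0.113) and in 5 of the 7 fits that left out 1 library (−0.96 to −0.90). *Slc25a34* gained a call with DESeq2 (−1.05), without the filter on low counts (−1.04, adjusted p = 0.0445), with 1 RUVr factor (−1.04, adjusted p = 0.0214) and with all 4 groups of RNA-Seq 2 in one fit (−1.05), and ran from −1.10 to −0.99 when 1 library was left out. The *Rbp3* difference turned to −1.15 with the replicate block, to −0.48 with 1 RUVr factor and to −0.15 without WT homecage replicate 1, where the other such fit that kept the gene gave 0.035. As a difference of CPM it ran from −0.0816 to 0.460 when 1 library was left out. The cause of these changes was not tested.

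The number of genes called in homecage, 2 in the reported fit, was 59 with DESeq2, 10 without the filter, 0 with the replicate block, 152 with 1 RUVr factor, 5 with 4 groups in one fit, 0 with replicates 1 and 2 only, and 0 to 7 when 1 library was left out. For learning in WT mice, 231 became 135 with TMM factors, 862 with DESeq2, 143 without the filter, 12 with the replicate block, 64 with GC normalization, 9 without RUVr factors, 3 in RNA-Seq 1 alone, 21 in RNA-Seq 2 alone and 36 to 2274 when 1 library was left out, the last without WT homecage replicate 3 of RNA-Seq 1. *Slc25a34* there ran from −0.33 to −0.10. For training in CBP KIX/KIX mice, 2 became 44 with DESeq2, 137 with 1 RUVr factor, 0 with 4 groups in one fit and 0 to 155 when 1 library was left out, the last without homecage replicate 1. For genotype after learning, 610 became 933 with DESeq2, 308 without the filter, 8 with the replicate block, 262 with GC normalization, 4 without RUVr factors, 3 in RNA-Seq 1 alone, 1 in RNA-Seq 2 alone and 233 to 1022 when 1 library was left out. *Rbp3* in RNA-Seq 1 alone was at 2.91, and 2 of the 9 most alike genes were shared when likeness used RNA-Seq 2.

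Correlations of same-numbered libraries did not all pass 0.1 in the homecage comparison (0.07 to 0.32), in learning (0.0999 to 0.190 in RNA-Seq 1, 0.189 to 0.381 in RNA-Seq 2) or in genotype after learning (lowest −0.17). In the CBP KIX/KIX training comparison, where they did, the block called 1 gene lower and 1 higher in place of 2 higher, and changed no call on *Papss2* or *Slc25a34*. The fit of genotype and training without the filter was chosen after seeing the data and moved the 3 values by less than their errors. Depth limits *Rbp3* above all, since 3 counts are worth 0.0651 to 0.195 CPM of the total count in RNA-Seq 2, without the upper-quartile factor.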

Other observations

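*Crx*, which encodes a transcription factor of photoreceptors and pinealocytes and is one of the 20 markers counted beside *Rbp3*, was singled out after its values were seen. The summed level of those markers overlapped between genotypes after the MWM (12.9 to 14.3 CPM in WT, 13.1 to 14.9 CPM in CBP KIX/KIX), and none of the 12 tested after learning passed. *Crx* had 6, 5 and 9 reads in the CBP KIX/KIX libraries after the MWM, against 0, 2 and 1 in WT after the MWM and 0, 4 and 0 in WT homecage of RNA-Seq 1. Those 3 mutant libraries were the ones in which *Rbp3* had 64, 32 and 43 reads. In RNA-Seq 2 the WT homecage library with 34 *Rbp3* reads had 7 *Crx* reads, whereas the CBP KIX/KIX homecage library with 25 *Rbp3* reads had 0. All 4 CBP KIX/KIX homecage libraries and all 4 WT libraries after CFC had 0 *Crx* reads, and the CBP KIX/KIX libraries after CFC had 2, 0, 0 and 1. These counts are too few for a comparison between groups.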
